A study of Mus musculus with 6 samples.

Results

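PPARγ (gene Pparg) and 9 genes of lipid droplets and fatty acid uptake, Cidea, Cidec, Plin2, Plin4, Plin5, Fabp4, Cd36, Mogat1 and Lpl, were examined in primary murine hepatocytes that did or did not overexpress Aloxe3. The 10 genes were taken by name from the 41388 genes of the deposited expression table. Of these, 8 averaged 0.5 RPKM or more (reads per kilobase of gene per 1000000 reads) and entered the test, while Plin4 and Mogat1 did not. Cidea, at a mean of 0.512 RPKM, lay just inside this limit, and Plin4, at 0.356 RPKM, was the closest member outside it.

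The hepatocytes came from C57BL/6J mice and were isolated with collagenase. They received adenovirus encoding β galactosidase (β-gal, the control protein; replicates 1, 2 and 3) or adenovirus encoding Aloxe3 (replicates 7, 8 and 9) at about 1000000 viral particles per 1000000 cells, and polyadenylated RNA was collected 24 h later (n = 3 per group). Both groups thus carried virus, an uninfected group was not analysed here, and the sources used here do not give the promoter that drove the viral genes. The labels do not say whether the samples came from separate animals or cultures, so the p-values measure the spread between these samples, which may be technical. In bulk RNA, fewer cells of a type cannot be told apart from less RNA per cell.

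PPARγ is a nuclear receptor that binds fatty acids and their oxidized derivatives, pairs with an RXR receptor on DNA and switches on genes for fat storage. It is best known as the master regulator of adipocytes, and in liver its level is usually low and goes up in steatosis. The lipid droplet is a core of triglyceride and sterol ester under a phospholipid monolayer. Perilipins coat it and control the access of lipases, and the CIDE proteins move lipid from small droplets into larger ones. Aloxe3 encodes the lipoxygenase eLOX3, which the study examined as a source of a PPARγ ligand, and the comparison here asks how the receptor and this set of genes were expressed when the enzyme was abundant.

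Aloxe3 was at 1.74 to 2.06 RPKM in the β-gal libraries and at 42.3 to 56.3 RPKM in the Aloxe3 libraries. On the log2(RPKM + 1) scale the difference was 4.05 (SE 0.101, adjusted p = 4.74e-06, limma with Benjamini-Hochberg adjustment), as the labels state. Reads of the viral gene are seen only as far as they aligned to mouse Aloxe3. The libraries were scaled to between 25521908 and 32431318 reads, so a single read per kb of gene equalled 0.0308 to 0.0392 RPKM. Among hepatocyte markers, 8 of 10 averaged 0.5 RPKM or more over the 6 libraries. Their sum, most of it Alb, was 5120 to 5175 RPKM (β-gal) and 4986 to 5121 RPKM (Aloxe3). Of the 8, 1 passed the test, against 0.394% of all tested genes. This was Ttr, which was lower with Aloxe3 (124 against 100.5 RPKM, log2 difference -0.30, limma adjusted p = 0.0448). That call was lost when any single library was left out, with an adjusted p of 0.0793 to 0.15, and over all 14 alternatives the adjusted p was 0.00188 to 0.210. At an unadjusted p under 0.05 there were also Apoa1 (log2 difference -0.10, limma adjusted p = 0.349) and Ahsg (0.21, limma adjusted p = 0.180). With Ttr these are 37.5% of the 8, against 12.7% of all tested genes. The markers under the limit were G6pc, at 0.0661 RPKM on average, and Tat, at 0.193, 0.346 and 0.295 RPKM with β-gal and at 0.635, 0.438 and 0.661 RPKM with Aloxe3, without overlap. These markers were named after their values were seen. All 6 adipocyte markers, Adipoq and Lep among them, were under 0.5 RPKM.

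Hepatocytes overexpressing Aloxe3 had 13.1% less Plin2 RNA and 49.4% more Cd36 RNA on average, with every Aloxe3 library on the same side of every β-gal library, but neither gene passed the test over all genes. For Pparg itself and the other 5 tested members the group means differed by less than the larger of the SDs between replicates. Of the 8 tested members 0 passed an adjusted p of 0.05 with limma, against 0.394% of all tested genes (50 of 12693, with 45 or 0.355% higher and 5 or 0.0394% lower). At an unadjusted p under 0.05 there were 2 members, Plin2 and Cd36, against 12.7% of all tested genes. The same 2 members were those whose groups did not overlap, which held for 19.9% of all tested genes (11.2% on the higher side, as Cd36, and 8.71% on the lower side, as Plin2). The 2 of 8 are 25% of the tested members, near that share. With voom in limma on the derived reads, 1 member passed, Plin2, and 174 genes passed over the whole table. The count of 50 genes dropped to between 6 and 19 when any single library was left out.

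**Figure D1:**
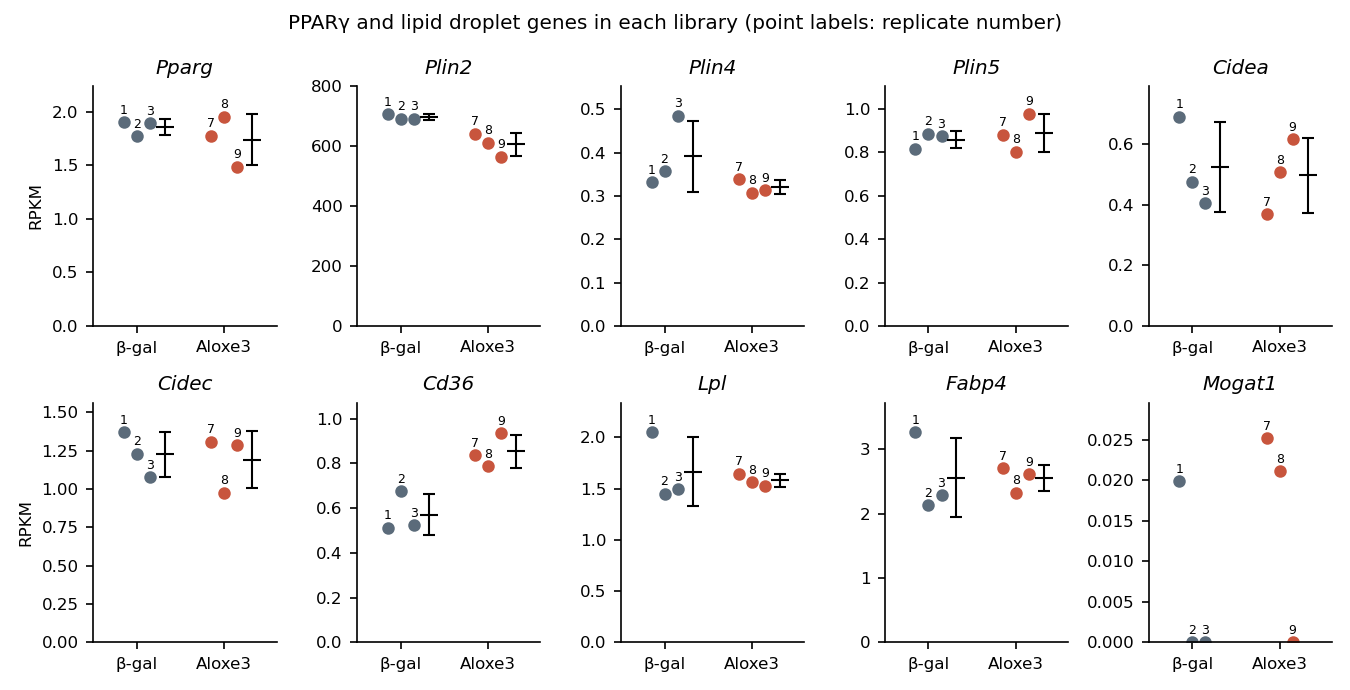
RPKM of the 10 genes in each library (points, with replicate numbers; grey, β-gal; red, Aloxe3), with the mean and SD of each group of 3 in black. Each panel has its own axis from 0, and no mean is drawn for Mogat1, which had at most 1 read in a library. Plin2 was lower and Cd36 higher in all 3 Aloxe3 libraries, and the groups overlapped for the other genes.

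As the members with the smallest p-values, Plin2 and Cd36 are shown with the DNA before their starts, to let the motif search be read on its letters. PPAR and RXR pairs bind 2 copies of AGGTCA with 1 base of any kind between them, and this motif was searched on both strands from 250 bases before to 50 bases after each annotated start in the RefSeq promoters (GRCm38.p6). The 250 bases before the start are printed for both genes, with the closest match, which has 2 mismatches and lies on the opposite strand, in capitals. The Plin2 sequence is chr4:86670060-86670309 and the Cd36 sequence, before a start inside the gene, is chr5:17835897-17836146, both on the reverse strand.
Plin2: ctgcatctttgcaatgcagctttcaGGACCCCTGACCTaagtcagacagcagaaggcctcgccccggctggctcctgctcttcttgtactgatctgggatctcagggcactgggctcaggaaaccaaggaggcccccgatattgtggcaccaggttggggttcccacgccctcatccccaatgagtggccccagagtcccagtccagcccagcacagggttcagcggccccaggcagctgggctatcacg
Cd36: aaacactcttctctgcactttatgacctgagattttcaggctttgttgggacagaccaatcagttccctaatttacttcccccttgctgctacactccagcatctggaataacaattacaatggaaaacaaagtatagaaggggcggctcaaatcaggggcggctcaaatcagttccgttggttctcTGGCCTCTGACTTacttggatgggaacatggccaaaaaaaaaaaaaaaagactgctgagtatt

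The match began 225 bases before the Plin2 start and 63 bases before the Cd36 start. A match of the same quality, AGGTAAAAAGTCA, began 51 bases before the Mogat1 start on the strand of the gene. The table held 11 windows for 7 members, namely Mogat1, Plin2, Cd36, Cidec, Pparg, Plin4 and Plin5. None of the 11 had the motif with at most 1 mismatch, which 0.554% of all 32851 windows had, and 3 had it with at most 2, which 3.86% of all windows had. These matches describe the letters in the windows.

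Pparg (ENSMUSG00000000440, chr6:115360951-115490399 of GRCm38, forward strand) was at 1.91, 1.77 and 1.89 RPKM in β-gal replicates 1, 2 and 3 and at 1.78, 1.96 and 1.49 RPKM in Aloxe3 replicates 7, 8 and 9. Behind these values lay 78 to 122 reads per library. The highest and the lowest value were both in the Aloxe3 group, so the groups overlapped. The means were 1.86 ± 0.0737 and 1.74 ± 0.237 RPKM (SD, n = 3), a log2 difference of -0.06 (SE 0.0733, 95% interval -0.23 to 0.11, limma adjusted p = 0.760). On the derived reads with voom, where no pseudocount of 1 RPKM narrows the scale, it was -0.09 (95% interval -0.38 to 0.20). An antisense gene, Gm44079, overlaps Pparg, and the library preparation did not keep the strand.

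Among the 3 PPAR receptors, compared per length, Pparg was the second in level. Ppard, the isoform present in most tissues, held 74.0% to 79.3% of the summed RPKM of the 3 genes, Pparg 11.1% to 15.1%, and Ppara, the fasting receptor of liver, 8.04% to 12.0%. Ppara was at 1.29 ± 0.199 RPKM with β-gal and at 1.39 ± 0.145 RPKM with Aloxe3 (log2 difference 0.06, limma adjusted p = 0.793). Ppard was at 9.58 ± 0.565 and 9.97 ± 0.612 RPKM (0.05, limma adjusted p = 0.739). The receptors were thus at like levels in both groups, and so was Rxra, the DNA-binding partner, at 32.9 ± 0.920 and 33.1 ± 0.865 RPKM (0.01, limma adjusted p = 0.927).

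Of 18 other PPAR, RXR and coregulator genes, 17 were tested and 0 passed with limma, 0 at an unadjusted p under 0.05. The estimate was above 0 for 15 of them and below 0 for 2, with a median log2 difference of 0.05 against 0.0049 over all tested genes. The smallest p-values belonged to Ppargc1a, the coactivator of oxidative metabolism, and Ncor1, a corepressor. Ppargc1a was at 1.35, 1.52 and 1.53 RPKM with β-gal and at 1.52, 1.78 and 1.79 RPKM with Aloxe3 (log2 difference 0.13, 95% interval -0.03 to 0.28, limma adjusted p = 0.468). Its groups overlapped, as the lowest Aloxe3 value lay below the highest β-gal value. Ncor1 was at 29.8 ± 0.302 and 31.5 ± 1.59 RPKM (0.08, limma adjusted p = 0.497).

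Among the genes with the profile most like Pparg across the 6 libraries were Magt1, a magnesium transporter and oligosaccharyltransferase subunit, and Hdhd5. Likeness was the root mean square difference between log2(RPKM + 1) profiles centred on their own means, over the 7366 genes whose mean reached 5 RPKM. It was 0.0184 for Magt1 and 0.0231 for Hdhd5, against a median of 0.0906 over all candidates. Pparg deviated from its own mean by 0.0823 on the same measure, so a flat profile would score near that median. Both genes had their highest value in Aloxe3 replicate 8 and their lowest in Aloxe3 replicate 9, as Pparg did. That match follows from how they were picked. The 6 points share their libraries and depth.

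Plin2 (ENSMUSG00000028494, chr4:86648386-86670060, reverse strand) encodes the perilipin that coats droplets in most cells outside fat tissue. It was at 708, 692 and 693 RPKM in the β-gal libraries and at 642, 612 and 565 RPKM in the Aloxe3 libraries, with 52423 to 80244 reads per library. All Aloxe3 values were below all β-gal values, and the spread was wider among the Aloxe3 libraries. The means were 697.5 ± 9.22 and 606.2 ± 38.8 RPKM (SD, n = 3). The log2 difference was -0.20 (SE 0.0525, 95% interval -0.33 to -0.08), with an unadjusted p of 0.00508 and an adjusted p of 0.237 from limma. An exact permutation test gave a two-sided p of 0.1, the smallest that 3 libraries against 3 allow.

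Whether Plin2 passed depended on the values tested. With voom in limma on the derived reads the log2 difference was again -0.20 (SE 0.0439) and the adjusted p was 0.0298. In the other 13 alternative analyses the adjusted p was above 0.05. The difference was -0.25 without Aloxe3 replicate 7 and -0.15 without Aloxe3 replicate 9, and below 0 in all 14 alternatives. Of all tested genes, 234 (1.84%) were lower by at least as much as Plin2.

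Division by Rplp0, a ribosomal protein gene that the study used as its reference in qPCR, moved Plin2 furthest, to -0.04. Rplp0 was itself at 304, 296 and 281 RPKM in the β-gal libraries and at 275, 271 and 241 RPKM in the Aloxe3 libraries. With this division the median log2 difference over all tested genes became 0.14, and Plin2 lay 0.18 below that median, against 0.21 below it with the deposited scaling.

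Plin2 was the most abundant of the members by far, at the 53rd highest mean RPKM of the table and at 255 times the RPKM of the next member, Fabp4. It made up 89.0% to 90.8% of the summed RPKM of the 5 perilipins in every library. Plin3, a perilipin that moves between cytosol and new droplets, made up nearly all of the rest, with 9.03% to 10.9%. The Plin2 share was 90.3% ± 0.505 with β-gal and 89.3% ± 0.403 with Aloxe3 (SD, n = 3), and the groups did not overlap. Plin3 itself was at 73.7 ± 3.38 and 71.6 ± 7.68 RPKM (log2 difference -0.04, limma adjusted p = 0.845), and its groups overlapped.

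Plin5 (ENSMUSG00000011305, chr17:56111601-56117596, reverse strand), the perilipin of oxidative tissues that links droplets with mitochondria, was at 0.817, 0.887 and 0.875 RPKM in the β-gal libraries and at 0.882, 0.804 and 0.979 RPKM in the Aloxe3 libraries. The Aloxe3 group held both the lowest and the highest value. The log2 difference was 0.02 (SE 0.0649, 95% interval -0.13 to 0.17, limma adjusted p = 0.919), and with voom 0.04 (95% interval -0.32 to 0.40).

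Plin4 (ENSMUSG00000002831, chr17:56100591-56109803, reverse strand), an adipocyte perilipin, lies 1797 bases from Plin5 on the same strand. It was at 0.333, 0.358 and 0.486 RPKM with β-gal and at 0.339, 0.308 and 0.314 RPKM with Aloxe3, from 48 to 83 reads per library. Its groups overlapped, with β-gal replicate 3 the highest and an exact permutation p of 0.2 (two-sided). The means were 0.392 ± 0.0822 and 0.320 ± 0.0166 RPKM (SD, n = 3), 18.3% lower with Aloxe3. It was under the limit for testing. In a fit with no limit the difference on the log2(RPKM + 1) scale, which narrows a difference at this level, was -0.07 (SE 0.0503, limma adjusted p = 0.728). The end of Plin4 overlaps Hdgfl2 on the other strand, which was at 29.0 RPKM on average. Plin1, the perilipin that defines the fat cell, had at most 1 read in any library.

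Cidea (ENSMUSG00000024526, chr18:67343604-67367785, forward strand) and Cidec (ENSMUSG00000030278, chr6:113424634-113435760, reverse strand) encode the droplet fusion proteins of brown fat and of white fat and steatotic liver. Cidea was at 0.692, 0.477 and 0.407 RPKM with β-gal and at 0.370, 0.509 and 0.618 RPKM with Aloxe3, from 11 to 26 reads per library. The 2 groups covered nearly the same range, and the log2 difference was -0.02 (SE 0.0992, 95% interval -0.25 to 0.21, limma adjusted p = 0.940). On the derived reads with voom the interval was much wider, -0.70 to 0.58 around -0.06. Cidec was at 1.37, 1.23 and 1.08 RPKM with β-gal and at 1.31, 0.975 and 1.28 RPKM with Aloxe3, from 55 to 82 reads. Its groups overlapped too, with a log2 difference of -0.02 (SE 0.0851, 95% interval -0.22 to 0.17, limma adjusted p = 0.931), and with voom of -0.06 (95% interval -0.43 to 0.30).

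Cideb, the family member of normal hepatocytes that acts in lipoprotein loading, held 78.8% to 85.3% of the summed RPKM of the 3 CIDE genes. Cidec held 9.96% to 14.2% and Cidea 3.95% to 7.11%. Cideb was at 8.00 ± 0.504 RPKM in the control group and at 7.72 ± 0.568 RPKM in the Aloxe3 group (log2 difference -0.05, limma adjusted p = 0.796), so all 3 members of the family overlapped between the groups.

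**Figure D2:**
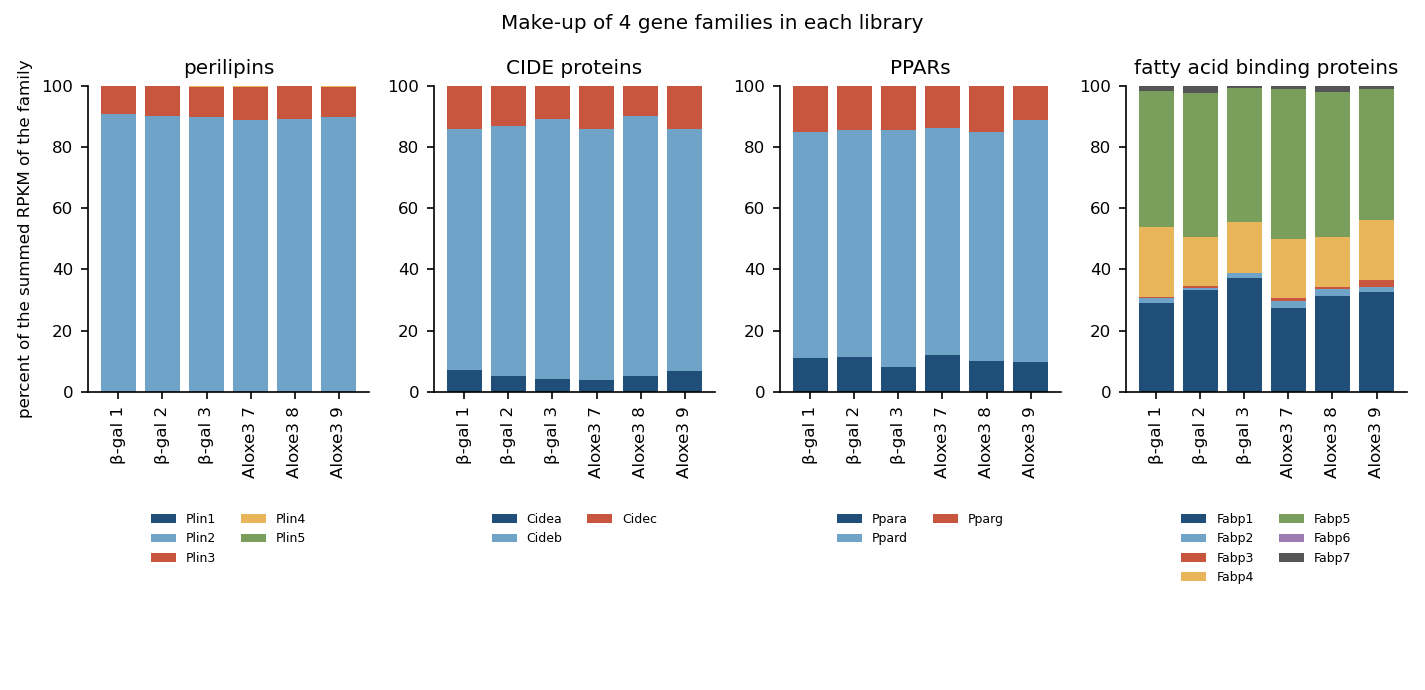
Share of each gene (percent of the summed RPKM of its family, bars from 0 to 100) in each of the 6 libraries, for perilipins, CIDE proteins, PPARs and fatty acid binding proteins. Plin2, Cideb and Ppard made up most of the first 3 families in every library, and Fabp1, Fabp4 and Fabp5 most of the fourth.

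Cd36 (ENSMUSG00000002944, chr5:17781690-17888801, reverse strand) encodes a scavenger receptor that takes up long-chain fatty acids and is raised in fatty liver. It was at 0.513, 0.675 and 0.525 RPKM in the β-gal libraries and at 0.838, 0.787 and 0.935 RPKM in the Aloxe3 libraries, from 61 to 97 reads per library. All Aloxe3 values lay above all β-gal values. The means were 0.571 ± 0.0904 and 0.853 ± 0.0748 RPKM (SD, n = 3). The log2 difference was 0.24 (SE 0.0729, 95% interval 0.07 to 0.41), with an unadjusted p of 0.0120 and an adjusted p of 0.280 from limma. The exact permutation p was 0.1, the smallest possible.

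For a gene under 1 RPKM the scale log2(RPKM + 1) understates a difference. With a pseudocount of 0.1 RPKM the log2 difference of Cd36 was 0.51 (SE 0.161, limma adjusted p = 0.292), and on the derived reads with voom it was 0.58 (SE 0.155, 95% interval 0.25 to 0.91, adjusted p = 0.0913). Over the 13 alternatives that could be fitted it was between 0.20 and 0.58, with an adjusted p between 0.0913 and 0.521. Of all tested genes, 434 (3.42%) were higher by at least as much as Cd36. In level Cd36 was a minor member of its functional group, with 0.922% to 1.91% of the summed RPKM of Cd36 and the 6 Slc27a fatty acid transporters, and Slc27a1 and Slc27a4 together made up most of the sum.

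Fabp4 (ENSMUSG00000062515, chr3:10204088-10208576, reverse strand), the fatty acid binding protein of adipocytes, macrophages and capillary endothelium, was at 3.26, 2.13 and 2.28 RPKM with β-gal and at 2.71, 2.32 and 2.61 RPKM with Aloxe3, from 43 to 67 reads. The Aloxe3 values all lay within the range of the β-gal values. The log2 difference was 0.01 (SE 0.115, 95% interval -0.26 to 0.28, limma adjusted p = 0.984), and with voom 0.01 (95% interval -0.42 to 0.44). Fabp4 held 15.8% to 22.8% of the summed RPKM of 7 fatty acid binding proteins. Fabp5 held 43.0% to 48.9%, and Fabp1, the binding protein of mature hepatocytes, 27.3% to 37.0%. Fabp1 was at 4.56 ± 0.472 and 4.24 ± 0.367 RPKM (limma adjusted p = 0.683) and Fabp5 at 6.24 ± 0.217 and 6.50 ± 0.651 RPKM (limma adjusted p = 0.805).

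Lpl (ENSMUSG00000015568, chr8:68880491-68907448, forward strand), which hydrolyzes triglyceride of circulating lipoproteins and is silenced in adult hepatocytes, was at 2.05, 1.45 and 1.49 RPKM with β-gal and at 1.65, 1.57 and 1.53 RPKM with Aloxe3, from 275 to 451 reads. Again the Aloxe3 values lay within the β-gal range. The log2 difference was -0.04 (SE 0.0901, 95% interval -0.25 to 0.17, limma adjusted p = 0.889), and with voom -0.06 (95% interval -0.31 to 0.18). Lpl held 19.5% to 24.3% of the summed RPKM of Lpl, Lipc, Lipg and Pnlip. Lipc, the lipase that hepatocytes secrete, held 72.5% to 79.0%.

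Fabp4 and Lpl were both highest in β-gal replicate 1, at 128% and 127% of their mean over the 6 libraries. In the same library 9 macrophage markers without Cd68 summed to 15.6 RPKM, against 11.1 to 13.1 RPKM in the other 5. The full list of 10, in which Cd68 dominated and Clec4f, Timd4, Vsig4 and Ptprc were under 0.5 RPKM, summed to 159 to 164 RPKM with β-gal and 140 to 154 RPKM with Aloxe3. All Aloxe3 sums were lower. Without Cd68 the groups overlapped, at 11.1 to 15.6 RPKM with β-gal and 11.4 to 13.1 RPKM with Aloxe3. Of the 6 tested genes in the full list 0 passed with limma. Cd68 was the 1 gene at an unadjusted p under 0.05 (16.7% of the 6, against 12.7% of all tested genes). It was at 148 ± 1.2 and 133 ± 7.21 RPKM (SD, n = 3, log2 difference -0.15, limma adjusted p = 0.262). Its groups did not overlap, which held on the lower side for 8.71% of all tested genes. The 10 endothelial markers summed to 53.5 to 58.6 RPKM with β-gal and 52.3 to 59.3 RPKM with Aloxe3, and 0 of 8 tested passed. Gpihbp1, which holds LPL on capillary endothelium, was at 119% of its mean in β-gal replicate 1. Stellate and fibroblast markers summed to 4.65 to 5.12 RPKM (β-gal) and 4.49 to 5.01 RPKM (Aloxe3), with Lrat at 0 in each. The 5 cholangiocyte markers summed to far more, 1509 to 1593 RPKM with β-gal and 1577 to 1716 RPKM with Aloxe3, and the groups overlapped. Most of that sum was Spp1, at 1521 RPKM on average, with Sox9 at 42.3 and Krt19 at 40.7 RPKM. Krt7 and Epcam were under 0.5 RPKM, and 0 of the 3 tested passed. In the endothelial, stellate and cholangiocyte lists all genes overlapped between the groups except Tie1, Acta2 and Epcam. These were lower in every Aloxe3 library, at 3.20 and 2.91, 1.02 and 0.884, and 0.426 and 0.265 RPKM on average (β-gal and Aloxe3). The part of these cell types in the levels of Plin2, Fabp4, Lpl and Cd36 was not tested.

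**Figure D3:**
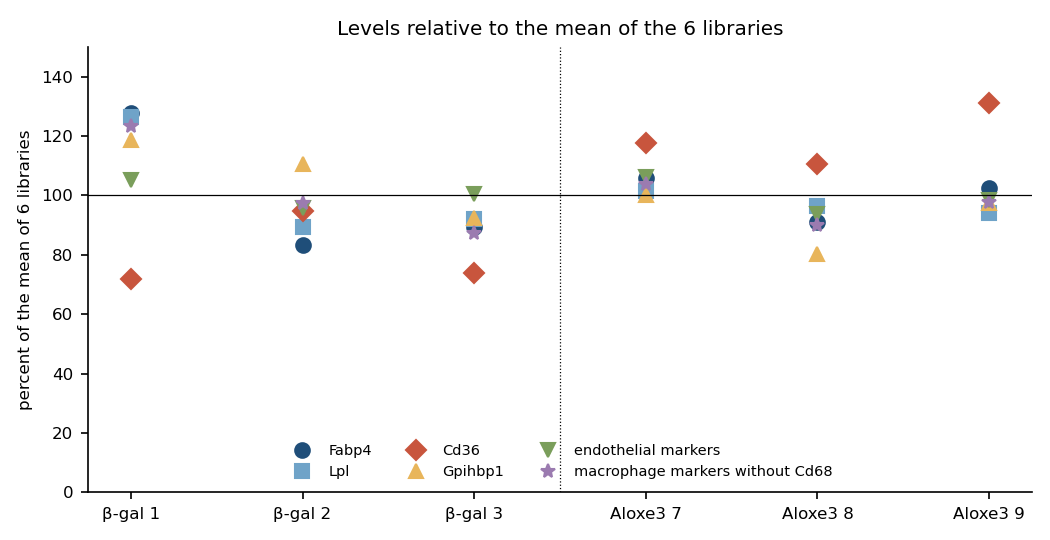
Level in each library as a percent of the mean of the 6 libraries, for Fabp4, Lpl, Cd36, Gpihbp1, the summed endothelial markers and the summed macrophage markers without Cd68. Fabp4, Lpl and the macrophage sum, most of it Lyz2, stood highest in β-gal replicate 1. Cd36 was lowest there, at 72.0% of its mean, and was above its mean in the 3 Aloxe3 libraries.

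Mogat1 (ENSMUSG00000012187, chr1:78510991-78538173, forward strand), which makes diacylglycerol from monoacylglycerol and is known as a PPARγ target in fatty liver, had 1, 0 and 0 reads with β-gal and 1, 1 and 0 reads with Aloxe3. No ratio is given, because the reads summed over the β-gal libraries were not above the floor of 3. The second enzyme of the family, Mogat2, made up 99.56% to 100% of the summed RPKM of the pair. It was at 5.53 ± 0.597 and 5.32 ± 0.463 RPKM (log2 difference -0.05, limma adjusted p = 0.848).

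In level per length the members came in the order Plin2 (652 RPKM over all libraries), Fabp4 (2.55), Pparg (1.80), Lpl (1.62), Cidec (1.21), Plin5 (0.874), Cd36 (0.712), Cidea (0.512), Plin4 (0.356) and Mogat1 (0.0110). The ranges of neighbours over the 6 libraries overlapped for Pparg and Lpl, Cidec and Plin5, Plin5 and Cd36, Cd36 and Cidea, and Cidea and Plin4. Those of the other neighbours did not.

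Genes that PPARγ is known to drive in fat cells were examined next, as a list of 27 other targets. Of these 20 were tested and 0 passed with limma. Acsl1, which activates fatty acids to acyl-CoA, was the 1 gene with an unadjusted p under 0.05 (5%, against 12.7% of all tested genes). Acsl1 was at 5.81, 5.97 and 6.10 RPKM with β-gal and at 6.68, 6.59 and 6.23 RPKM with Aloxe3 (log2 difference 0.11, limma adjusted p = 0.363), without overlap. The median of the list was 0.0084 and 11 estimates were above 0. Among well-known targets, Angptl4, an inhibitor of LPL, was at 39.5 ± 3.65 and 36.8 ± 1.08 RPKM (limma adjusted p = 0.576), and Ucp2 at 4.85 ± 0.425 and 5.43 ± 0.635 RPKM (limma adjusted p = 0.539). Scd1, the stearoyl-CoA desaturase, was at 58.5 and 58.6 RPKM on average (95% interval of the log2 difference -0.12 to 0.12, limma adjusted p = 0.995). The 7 targets under the limit were Adipoq, Aqp7, Pck1, Ucp1, Ucp3, Fgf21 and Plin1.

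Among 22 other lipid droplet proteins, 19 were tested and 1 passed, against 0.394% of all tested genes. This was Hsd17b13, a droplet-bound dehydrogenase of hepatocytes. It rose in Aloxe3-overexpressing cells, from 4.34, 5.15 and 4.75 RPKM to 8.76, 6.83 and 8.19 RPKM, with every Aloxe3 value above every β-gal value. The difference of means was 67.0% and the log2 difference 0.63 (SE 0.0884, 95% interval 0.43 to 0.84, limma adjusted p = 0.0382). The call was kept without Aloxe3 replicate 8 (adjusted p = 0.0398). It was lost without β-gal replicate 1, 2 or 3 (adjusted p of 0.125, 0.126 and 0.127) and without Aloxe3 replicate 7 or 9 (0.106 and 0.143), and over all 14 alternatives the adjusted p was between 0.00111 and 0.207.

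The rest of that list did not pass, and its median log2 difference was -0.01 with Hsd17b13 included. Its second smallest p was that of Fitm2, which partitions triglyceride into droplets, at 8.86 ± 0.277 and 8.11 ± 0.743 RPKM (limma adjusted p = 0.489). Hilpda, a hypoxia-inducible inhibitor of ATGL, was at 41.3 ± 1.71 and 37.8 ± 3.68 RPKM (limma adjusted p = 0.491), and G0s2, a further inhibitor of ATGL, at 57.0 ± 4.79 and 58.7 ± 4.65 RPKM (limma adjusted p = 0.847).

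Of 14 genes of triglyceride hydrolysis, 12 were tested, 0 passed with limma, and 2 (16.7%, against 12.7% of all tested genes) had an unadjusted p under 0.05. These were Lipa (lysosomal acid lipase, log2 difference 0.09, adjusted p = 0.357) and Ces3b (a carboxylesterase, -0.13, adjusted p = 0.367). Pnpla2, which encodes ATGL, was at 39.5 ± 0.441 and 40.0 ± 1.13 RPKM, with a 95% interval of the log2 difference from -0.07 to 0.10. Its activator Abhd5 was at 17.5 ± 0.825 and 16.8 ± 1.62 RPKM (limma adjusted p = 0.767), and hormone-sensitive lipase, Lipe, at 2.07 ± 0.0903 and 2.07 ± 0.213 RPKM (limma adjusted p = 0.997).

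Of 20 genes of triglyceride synthesis and VLDL loading, 19 were tested and 0 passed with limma. Mttp and Dgat1 (10.5% of the 19, against 12.7% of all tested genes) had an unadjusted p under 0.05. Mttp, which loads lipid onto apolipoprotein B, was at 10.1, 9.57 and 10.2 RPKM with β-gal and at 11.4, 10.8 and 11.3 RPKM with Aloxe3 (log2 difference 0.15, limma adjusted p = 0.254). Dgat1, which makes triglyceride from diacylglycerol, was at 12.5, 11.6 and 11.7 RPKM with β-gal and at 11.4, 10.4 and 9.94 RPKM with Aloxe3 (-0.16, limma adjusted p = 0.313). The groups overlapped for neither gene, with Mttp on the higher and Dgat1 on the lower side. Dgat2 was at 58.7 ± 3.03 and 60.7 ± 1.99 RPKM (limma adjusted p = 0.691).

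Of 20 genes of fatty acid uptake, binding and activation, 14 were tested and 0 passed with limma. An unadjusted p under 0.05 was found for 4 (28.6%, against 12.7% of all tested genes). These were Slc27a2 (log2 difference 0.20, adjusted p = 0.291), Acsl4 (0.11, adjusted p = 0.317), Acsl1 and Slc27a5 (-0.17, adjusted p = 0.351). Slc27a2 and Slc27a5 are acyl-CoA synthetases that act in fatty acid uptake, Slc27a5 also on bile acids, and their estimates had opposite signs. Of 16 lipoprotein lipase partners and related lipases, 13 were tested and 0 passed with limma. An unadjusted p under 0.05 was found for 4 (30.8%, against 12.7% of all tested genes). These were Apoc3, an inhibitor of LPL (-0.13, adjusted p = 0.295), Furin, a protease that cleaves LPL (-0.09, adjusted p = 0.334), Lipc (-0.13, adjusted p = 0.367) and Apoa5, which promotes LPL activity (0.13, adjusted p = 0.334). The estimate of Apoa5 was the only positive one of the 4. Gpihbp1 was at 1.87 ± 0.235 and 1.62 ± 0.187 RPKM (limma adjusted p = 0.540).

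Over all these lists together, 116 genes other than the members, 95 were tested and 1 passed. Of the 95, 13 had an unadjusted p under 0.05, with 7 higher and 6 lower, and the median log2 difference was 0.0094, against 0.0049 over all tested genes. The groups did not overlap for 19 of the 95. These counts are 13.7% and 20% of the list, near the shares over all tested genes, 12.7% and 19.9%. No list was tested as a set.

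**Figure D4:**
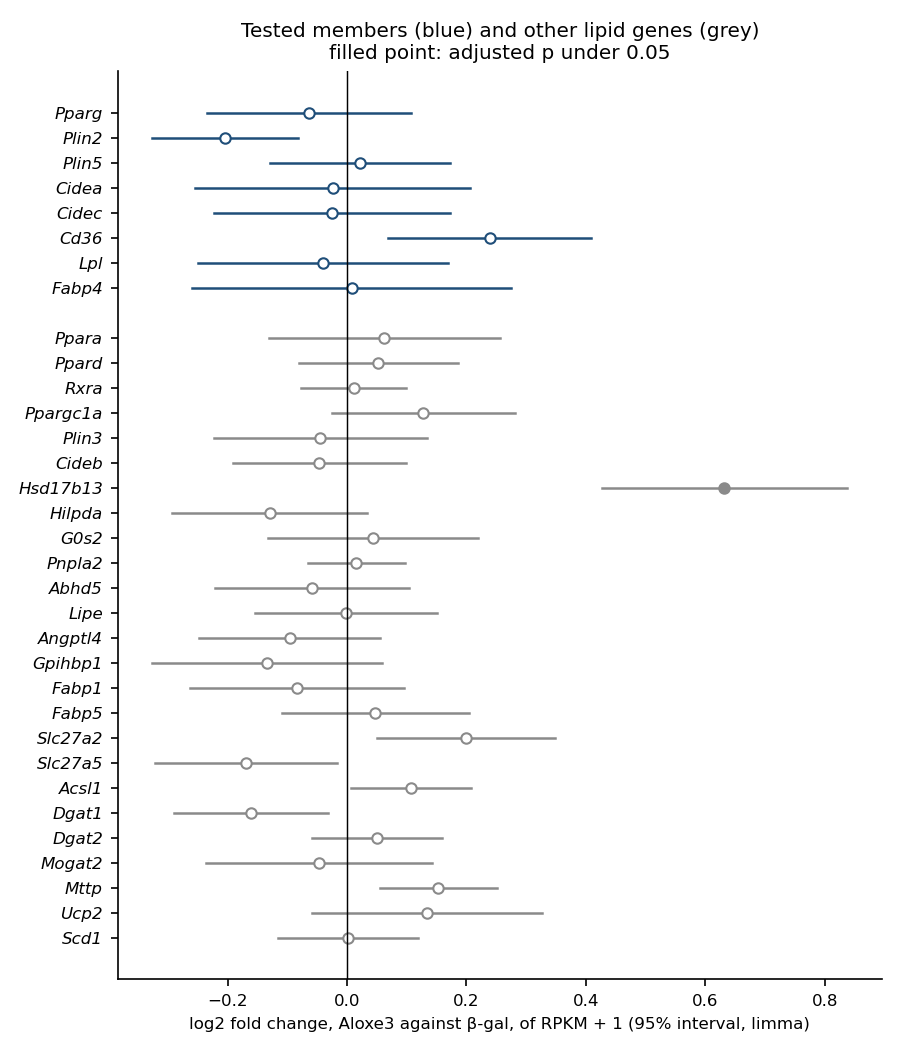
Log2 difference (Aloxe3 against β-gal, of RPKM + 1) with its 95% interval from limma, for the 8 tested members (blue) and 25 other lipid genes (grey). A filled point marks an adjusted p under 0.05, which only Hsd17b13 has among those drawn, and the intervals of Plin2 and Cd36 do not reach 0.

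**Figure D5:**
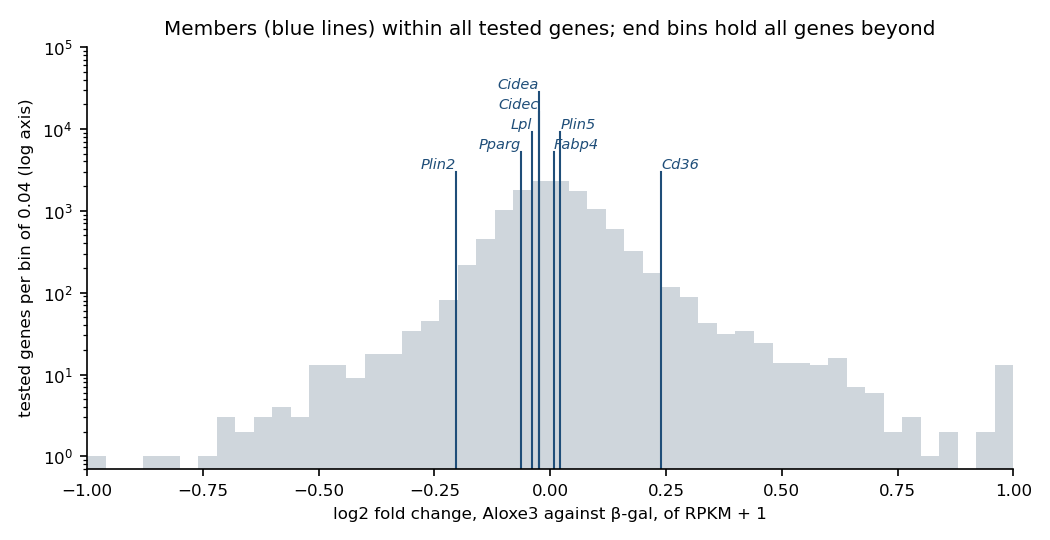
Number of tested genes (log axis) by log2 difference (Aloxe3 against β-gal, of RPKM + 1) in bins of 0.04, with the 8 tested members as blue lines and the end bins holding all genes beyond them. Plin2 at -0.20 and Cd36 at 0.24 lie outside the 5th and 95th percentiles of all genes, -0.14 and 0.20, and the other 6 members lie near the centre.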

How the data were processed

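Groups were taken from the sample labels. The authors aligned single reads of 50 bases with STAR 2.0.4b to GRCm38.p2, used featureCounts 1.4.5 for the unique reads of each gene, and deposited RPKM values for 41388 Ensembl genes. How RPKM was computed from counts is not given in the sources used here. Symbols and coordinates come from GENCODE M21 (GRCm38), which matched 40340 identifiers. Whole-number steps of the values gave each library's size and the reads per gene (25521908 to 32431318 reads, tolerance 0.02 of a read).

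log2(RPKM + 1) of the 12693 genes averaging 0.5 RPKM or more was tested with limma 3.58.1 (lmFit, eBayes with trend, R 4.3.3, Python 3.11.15), two-sided, with Benjamini-Hochberg adjustment over all tested genes at 0.05. The scripts were tested on simulated data. Alternatives were a pseudocount of 0.1, no filter, a mean of at least 5 RPKM, 3 other scalings, no trend, voom on the derived reads, and each library left out.

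The members and lists were chosen with earlier results of these data known. Named are the members, Aloxe3, Rplp0, genes set for their role, in each other lipid list the 2 genes of smallest p and those past the threshold, and the 3 most like Pparg, of which 1 is not reported here. Floors and reads cover counting error only.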

Additional observations from a re-analysis of the deposited data

How the results depend on the processing

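No paired analysis was made, as the labels give no pairing between samples 1, 2 and 3 and samples 7, 8 and 9. Whether samples of the 2 groups shared a hepatocyte preparation is not stated. The count of members past the threshold was 0, and 1 with voom on the derived reads. It was 0 without any single library. The count of other lipid genes was 1, and 0 with no filter, with rescaling to the same median, with quantile normalization and without the trend, and 0 to 1 with a library left out. Among all genes tested, 50 passed, against 7 with no filter, 102 after division by Rplp0, 174 with voom and 6 to 19 with a library left out.

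Division by Rplp0 turned the sign of Pparg (0.041), Cidea (0.037), Cidec (0.068) and Lpl (0.062). Relative to the median of all genes, which this division moved to 0.14, these 4 stayed below, at -0.10, -0.10, -0.07 and -0.08, while Plin5 (0.017 above it with the deposited scaling) and Fabp4 (0.0033 above) came to lie below, at -0.04 and -0.012. On the log2(RPKM + 1) scale, a division common to all genes of a library moves genes at low RPKM less than abundant ones. Plin5 became -0.017 with quantile normalization. Fabp4 became -0.0021 with median rescaling, which moved the median of all genes to -0.0065 and left Fabp4 0.0043 above it, and -0.029 with quantile normalization. With a library left out, Pparg ranged from -0.12 to 0.0049, Cidea from -0.081 to 0.053, Cidec from -0.074 to 0.048, Plin5 from -0.013 to 0.054, Fabp4 from -0.077 to 0.15 and Lpl from -0.098 to 0.061. The causes were not tested. Plin2 (-0.25 to -0.04), Cd36 (0.20 to 0.58) and Aloxe3 (3.93 to 4.61) kept their sign in every alternative that could be fitted. With 11 to 26 reads for Cidea per library, counting error alone is wide.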
